A study of Homo sapiens with 9 samples.

Results

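The AP-1 and immediate early genes described here are FOS, FOSB, FOSL1, FOSL2, JUN, JUNB, JUND, EGR1, IER3 and ATF3. They were chosen by gene symbol, with earlier results of these data known. All 10 were found among the 35762 gene symbols of the deposited estimated count table, and all 10 were among the 15345 genes with enough counts to be tested. The cells were TYUC-1, a cancer cell line labelled as neuroendocrine esophageal carcinoma and grown in suspension with serum. EPZ-6438 (tazemetostat) blocks EZH2, the enzyme of Polycomb repressive complex 2 that methylates histone H3. Cells were sampled before exposure (day 0) and on its day 3 and day 6, with 3 biological replicates per day and 9 libraries in all. The protocol gives 2 uM EPZ-6438 or DMSO. Every library carries EPZ-6438 as its treatment, and the labels leave unsaid if DMSO was given on day 0. No vehicle-treated culture of day 3 or day 6 was analysed here, so exposure and time in culture cannot be told apart in any comparison below. What separates the biological replicates is not stated either, and p-values measure the spread between these libraries of 1 cell line.

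AP-1 is a dimer of basic leucine zipper proteins, in which a JUN protein pairs with a FOS, ATF or another JUN protein and binds a short palindrome in DNA. FOS proteins cannot pair with themselves and depend on a JUN partner. FOS, FOSB, JUN, JUNB, EGR1, IER3 and ATF3 are immediate early genes: growth factors, serum and stress induce them within minutes and without new protein synthesis, largely through MAP kinases, and their transcripts are short-lived. FOSL1 and FOSL2 encode the FOS-related proteins FRA1 and FRA2, which lack the strong activation domain of FOS and usually appear later and stay longer. In squamous epithelia and their carcinomas AP-1 is known as a regulator of keratinocyte differentiation and of invasion genes.

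The genes were short. All 10 had at most 4 exons in their longest coding transcript in GENCODE 29 (GRCh38), against 24.5% of the 14929 tested genes with a match in that annotation. JUN, JUNB, JUND and IER3 had 1 exon, as 4.63% of tested genes did. The span of 9 of the 10 lay below the median of 31082 bases, and ATF3 with 55444 bases was the exception. FOS lies at chr14:75278774-75282230 on the plus strand, EGR1 at chr5:138465490-138469315 on the plus strand and IER3 at chr6:30743199-30744554 on the minus strand. JUN (chr1:58780788-58784327, minus) and ATF3 (chr1:212565334-212620777, plus) share a chromosome, as do FOSB (chr19:45467995-45475179, plus), JUNB (chr19:12791496-12793315, plus) and JUND (chr19:18279760-18281622, minus). FOSL1 lies at chr11:65892049-65900573 on the minus strand and FOSL2 at chr2:28392448-28417312 on the plus strand. FOSB overlaps ERCC1 and JUNB overlaps HOOK2 on the opposite strand. Overlap was taken over whole gene spans, and how much of it is transcript sequence was not examined. Since use of strand in the counting is not stated, reads from sequence that either pair shares may be mixed in the counts. The same holds for IER3, which overlaps IER3-AS1 on the opposite strand, and for FOSL2, which overlaps FLJ31356 on the opposite strand and AC104695.3 on its own. These 3 overlapping genes were not analysed here.

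Most of the promoters shared a sequence. RefSeq promoters (GRCh38.p14) were matched for 8 of the 10 genes, FOSL1 and IER3 having no entry in the table used, and the 250 bases before each start were searched on both strands. The core TGACG of the cyclic AMP response element (CRE), a site bound by CREB and by ATF and JUN dimers, was found in 7 of the 8 genes and in 21.2% of 35116 promoters of the same length. The full palindrome TGACGTCA, which holds this core on each strand, was found in JUND only, at -200 to -193, and in 1.65% of all promoters. The windows of 30 bases that hold the core nearest to the start are shown because they are what most of these promoters have in common. Capitals mark the core, which reads CGTCA where it lies on the opposite strand.
FOS: tggttgagcccgTGACGtttacactcattc
FOSB: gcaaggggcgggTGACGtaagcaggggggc
FOSL2: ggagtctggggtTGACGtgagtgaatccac
JUN: gagtctccatggTGACGggcgggcccgccc
JUNB: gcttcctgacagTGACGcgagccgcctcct
JUND: gcaaatgagcgaCGTCAcccgcacccaatg
EGR1: tatggccatgtaCGTCAcgacggaggcgga
These windows lie at chr14:75278752-75278781 for FOS, chr19:45467924-45467953 for FOSB, chr2:28392780-28392809 for FOSL2, chr1:58784153-58784182 for JUN, chr19:12791337-12791366 for JUNB, chr19:18281691-18281720 for JUND and chr5:138465401-138465430 for EGR1, each printed on the strand of its gene. The core lay between -66 and -56 from the start in FOS, FOSB, FOSL2 and EGR1, and farther out in JUND (-86 to -82), JUN (-123 to -119) and JUNB (-137 to -133). These positions count from RefSeq starts, which can differ from the GENCODE starts. The FOSL2 and JUN windows lie wholly inside the GENCODE spans given above, and the FOS window lies partly inside.

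EGR1 and FOSB both rose by day 3 (below), and their promoters are printed in full to show how the elements are placed. In EGR1 (chr5:138465229-138465478, plus strand) capitals mark a GCGNGGGCG site, the sequence that EGR proteins bind, 2 CRE cores and 2 CArG boxes, the sites of serum response factor. In FOSB (chr19:45467746-45467995, plus strand) they mark the CRE core and the TATAAA sequence.
EGR1: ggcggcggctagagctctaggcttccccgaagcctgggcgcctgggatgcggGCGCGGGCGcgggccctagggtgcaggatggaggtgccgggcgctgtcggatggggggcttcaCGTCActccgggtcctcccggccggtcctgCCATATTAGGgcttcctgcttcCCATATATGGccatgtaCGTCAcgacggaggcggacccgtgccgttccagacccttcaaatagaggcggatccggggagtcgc
FOSB: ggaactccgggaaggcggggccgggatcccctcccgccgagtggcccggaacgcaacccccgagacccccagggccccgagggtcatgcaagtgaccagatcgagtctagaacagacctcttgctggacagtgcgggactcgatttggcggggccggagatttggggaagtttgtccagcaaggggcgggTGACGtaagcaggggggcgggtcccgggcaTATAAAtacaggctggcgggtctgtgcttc
CArG boxes were found in 1.16% of all promoters and, of the 8 matched genes, in EGR1 only, at -105 to -96 and -83 to -74. Sites farther out than these 250 bases were not searched for, in FOS as in the other genes. The GCGNGGGCG site was found in 8.41% of promoters and again in EGR1 only. TATAAA was found in FOS, FOSB, JUNB and ATF3 (4 of 8, against 10.7% of promoters). It lay close to the start in FOS (-33 to -28), FOSB (-30 to -25) and JUNB (-31 to -26). In ATF3 it lay far out, at -230 to -225, and only for the listed start with 44.8% GC. The AP-1 palindrome TGANTCA was found in none of the 8 (6.57% of promoters). GC content over the 9 starts of these genes had a median of 65.6%, against 58% for all promoters. ATF3, with 2 listed starts, held the lowest values (49.2% and 44.8%). These matches describe letters in a window and do not show binding.

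The 9 libraries held 21638874 to 31235055 estimated counts, so that 3 counts, the upper limit that a count of 0 allows, corresponded to 0.098 to 0.141 CPM, the count scaled to a common library total. Levels below are CPM after correction for library composition, a name such as D0_2 gives the day (0) and the replicate number (2), and mean ± SD is over n = 3 libraries. D0_2 stood apart from its day: across 11041 genes its mean correlation with the other day 0 libraries was 0.976, against 0.986 for each of those, and within day 3 and day 6 such means were 0.992 to 0.997. D0_2 held the highest day 0 level of 7 of the 10 genes. Of the 9 neuroendocrine markers 7 reached a mean of 1 CPM on every day, among them SYP (5.85 ± 0.948 on day 0), INSM1 (4.41 ± 0.181) and ENO2 (371 ± 23.8), while CHGA was at 0 in all 9 libraries. The summed level of these markers was 483 to 536 CPM on day 0, 545 to 551 on day 3 and 541 to 601 on day 6. Sums over other marker lists moved as well. Those on day 0, day 3 and day 6 were 51 to 66.2, 80.5 to 85.4 and 88.4 to 97 CPM for squamous markers, nearly all PKP1, and 55.4 to 60.1, 78 to 83.8 and 73.7 to 80.8 CPM for fibroblast markers, mostly PDGFRA with THY1 at 0. For leukocyte markers they were 489 to 644, 347 to 363 and 328 to 331 CPM, mostly LYZ with MS4A1 at 0, and for endothelial markers 2.49 to 3.4, 5.09 to 5.85 and 9.15 to 12.6 CPM with CLDN5 at 0. Single genes in these lists moved more than the sums show. Of the 8 squamous markers only 4 were tested, and these 4 were higher on day 6 than on day 0. Among them were KRT5 (1.05 ± 0.1, 0.416 ± 0.175 and 6.16 ± 0.852 CPM on the 3 days) and SOX2 (4, 53 and 198 counts over the 3 libraries of a day). KRT14 (1, 0 and 2 counts), SERPINB5 (2, 0 and 3), DSG3 (7, 11 and 21) and KRT6A (1, 1 and 17) had too few counts to be tested. A gene low on day 0, such as SOX2, passed that filter only by rising later. The fibroblast marker COL1A1 was at 0.492 ± 0.145, 3.6 ± 0.532 and 9.53 ± 1.06 CPM. The part of other cell types in the results below was not tested, and in bulk RNA fewer cells of a type and less RNA per cell cannot be told apart.

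Among the FOS family genes, FOS, FOSL1 and FOSL2 were higher on day 6 than on either earlier day, while FOSB was higher by day 3 and stayed there. FOS, the founding member and the classical serum-induced gene, measured 11.1, 16.3 and 11.6 CPM in the day 0 libraries, 17, 14.8 and 13.7 on day 3 and 25.1, 28.5 and 31.9 on day 6. All day 6 libraries lay above all others, while D0_2 lay within the range of day 3. The log2 fold change on day 6 against day 0 was 1.13 (SE 0.15, edgeR adjusted p = 5.36e-05), a 2.19-fold rise, and against day 3 it was 0.91 (SE 0.15, edgeR adjusted p = 0.00106). For day 3 against day 0 it was 0.23 (SE 0.15, edgeR adjusted p = 0.251), but 0.42 without D0_2 (adjusted p = 0.0106), the lowest adjusted p of 19 alternatives that reached up to 0.581.

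FOSL1, a gene prominent in invasive squamous carcinoma, was among the least abundant of the 10. Its levels were 1.57, 1.57 and 0.799 CPM on day 0, 1.53, 1.41 and 1.17 on day 3 and 2.83, 2.63 and 3.19 on day 6, from 17 to 84 counts a library. The day 0 and day 3 libraries overlapped throughout, and each day 6 library exceeded all of them. FOSL1 rose 2.16-fold on day 6 against day 0 (log2 fold change 1.11, SE 0.25, edgeR adjusted p = 0.00256) and by 1.06 on the log2 scale against day 3 (SE 0.25, edgeR adjusted p = 0.0109). The rise against day 3 lost its call without D3_3 or without D6_3 (adjusted p up to 0.0549, against a lowest of 0.00114 over the alternatives).

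FOSL2, the most abundant of the 4 FOS family genes in CPM, had 37.4, 30.3 and 37.1 CPM on day 0, 42.4, 40.2 and 38.2 on day 3 and 49, 53.7 and 53.1 on day 6. The 3 days formed 3 separate ranges in order of time. The difference of day 3 from day 0 did not pass (log2 fold change 0.20, SE 0.09, edgeR adjusted p = 0.0947, and 0.0517 to 0.267 over the alternatives). On day 6 FOSL2 was higher than on day 0 (0.57, SE 0.09, edgeR adjusted p = 0.000245) and than on day 3 (0.37, SE 0.09, edgeR adjusted p = 0.0154). This second rise lost its call without D3_2, D3_3, D6_2 or D6_3 (adjusted p up to 0.0799, lowest over the alternatives 0.000412).

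FOSB, a close relative of FOS best known from neurons, had 2.48, 2.13 and 2.77 CPM on day 0, 4.59, 3.48 and 4.18 on day 3 and 3.4, 4.61 and 3.75 on day 6. Both exposed groups lay wholly above day 0 and overlapped each other. FOSB rose by 0.73 on the log2 scale by day 3 (SE 0.18, edgeR adjusted p = 0.00733) and was 0.67 above day 0 on day 6 (SE 0.18, edgeR adjusted p = 0.00798). Between day 3 and day 6 the difference was -0.06 (SE 0.17, edgeR adjusted p = 0.865).

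**Figure D1:**
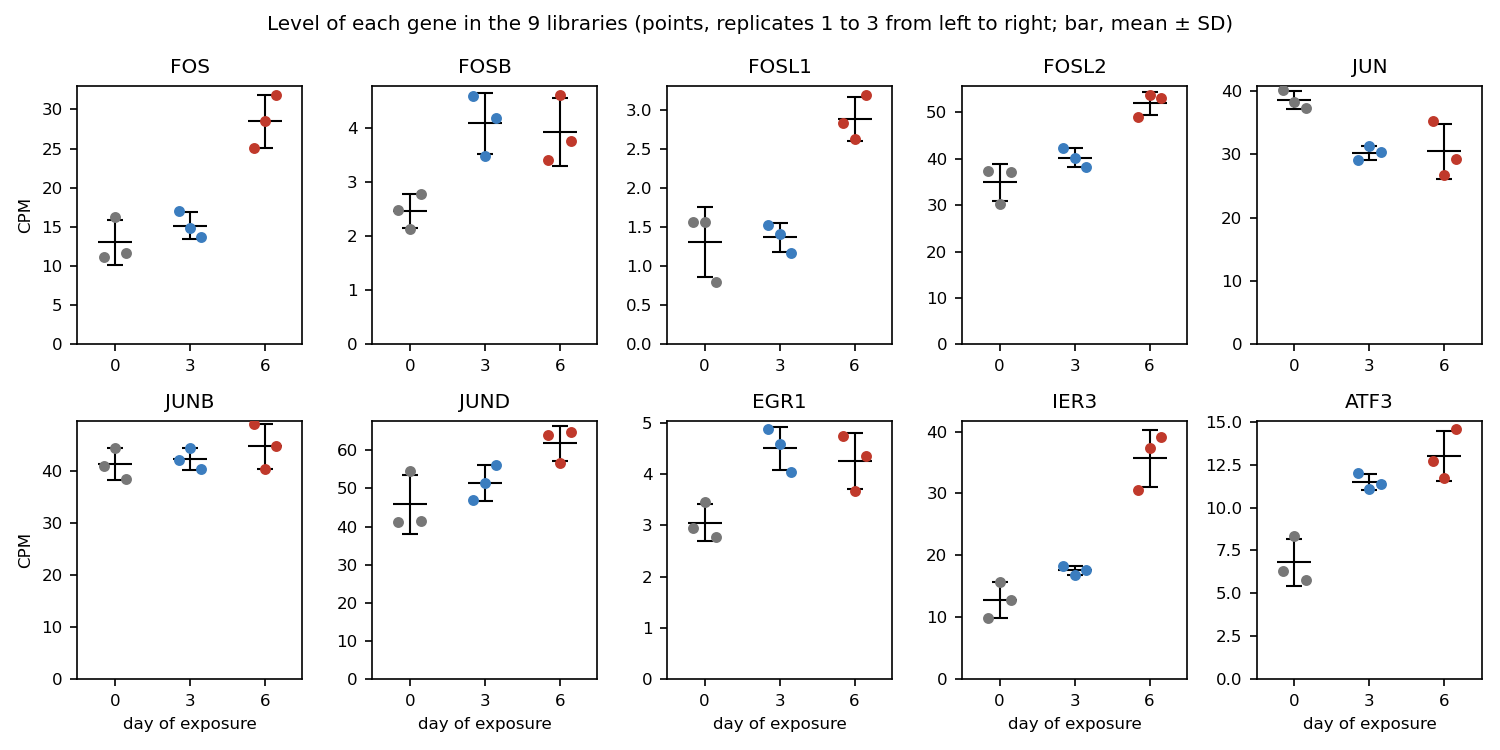
Level of each of the 10 genes in CPM (vertical axes, each from 0) by day of exposure, with 1 point per library and bars for mean ± SD of 3 libraries. FOS, FOSL1, FOSL2 and IER3 have their day 6 points above all day 3 points, FOSB, EGR1 and ATF3 have theirs within or close to the day 3 range, and JUN has all day 0 points above the rest.

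The JUN family, which supplies the partners, changed less and in both directions. JUN was the only one of the 10 genes that fell. It had 40.1, 38.3 and 37.4 CPM on day 0, 29.1, 31.3 and 30.4 on day 3 and 35.3, 26.8 and 29.3 on day 6. All day 0 libraries lay above all later ones, and D6_1 was the highest of the later libraries. JUN fell by 0.35 on the log2 scale by day 3 (SE 0.10, edgeR adjusted p = 0.0132) and by 0.34 by day 6 (SE 0.10, edgeR adjusted p = 0.0108), to 0.79 of the day 0 level. The fall on day 3 lost its call without D3_1 (adjusted p = 0.0565, with 0.00396 the lowest over the alternatives). The fall on day 6 lost it when libraries were scaled by size alone (adjusted p = 0.0653, with 0.00162 the lowest), a scaling under which the median of all genes was 0.13 instead of 0.01.

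JUND, often described as the constitutive JUN gene that opposes proliferation in several cell types, had 41.3, 54.7 and 41.4 CPM on day 0, 46.9, 51.3 and 56.2 on day 3 and 64, 56.6 and 64.8 on day 6. The day 6 libraries were the 3 highest, and D0_2 was above 2 of the 3 day 3 libraries. JUND rose by 0.43 on the log2 scale from day 0 to day 6 (SE 0.12, edgeR adjusted p = 0.00735). Day 3 against day 0 gave 0.17 (SE 0.12, edgeR adjusted p = 0.272), and 0.31 without D0_2 (adjusted p = 0.00773, up to 0.637 over the alternatives). Day 6 against day 3 gave 0.27 (SE 0.11, edgeR adjusted p = 0.152), although every day 6 library lay above every day 3 library, and this difference passed without D0_2 and when those 2 days alone were fitted (adjusted p down to 0.0137, up to 0.402).

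JUNB, an immediate early gene that can act against JUN on shared targets, did not pass in any comparison. Its levels were 41, 44.5 and 38.4 CPM on day 0, 42.1, 44.5 and 40.4 on day 3 and 49.1, 40.4 and 44.8 on day 6, with overlap between all days. The log2 fold change on day 6 against day 0 was 0.12 (SE 0.09, edgeR adjusted p = 0.288), and it passed only when libraries were scaled by size alone (0.23, adjusted p = 0.0272, with up to 0.784 over the other alternatives).

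Per kilobase of transcript, the balance within both families shifted. FOS made up 47.3% ± 7.34 of the FOS family on day 0 (D0_2 highest with 55.6%), 47% ± 1.18 on day 3 and 55.6% ± 1.93 on day 6, while FOSL2 went from 41.4% ± 6.99 to 40.2% ± 1.35 and 32.7% ± 1.59. FOSB and FOSL1 stayed under 8% each in every library. JUN made up 18.9% ± 1.86 of the JUN family on day 0, 14.4% ± 0.28 on day 3 and 12.9% ± 0.921 on day 6, JUND 42.1% ± 3.02, 46.4% ± 2.66 and 50% ± 1.66, and JUNB 39% ± 1.19, 39.2% ± 2.38 and 37% ± 0.745. The ratio of the FOS family sum to the JUN family sum, both per kilobase, was 0.21 to 0.225 on day 0, 0.228 to 0.289 on day 3 and 0.302 to 0.399 on day 6, with no overlap between days. These shares describe transcripts and carry no test of their own.

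**Figure D2:**
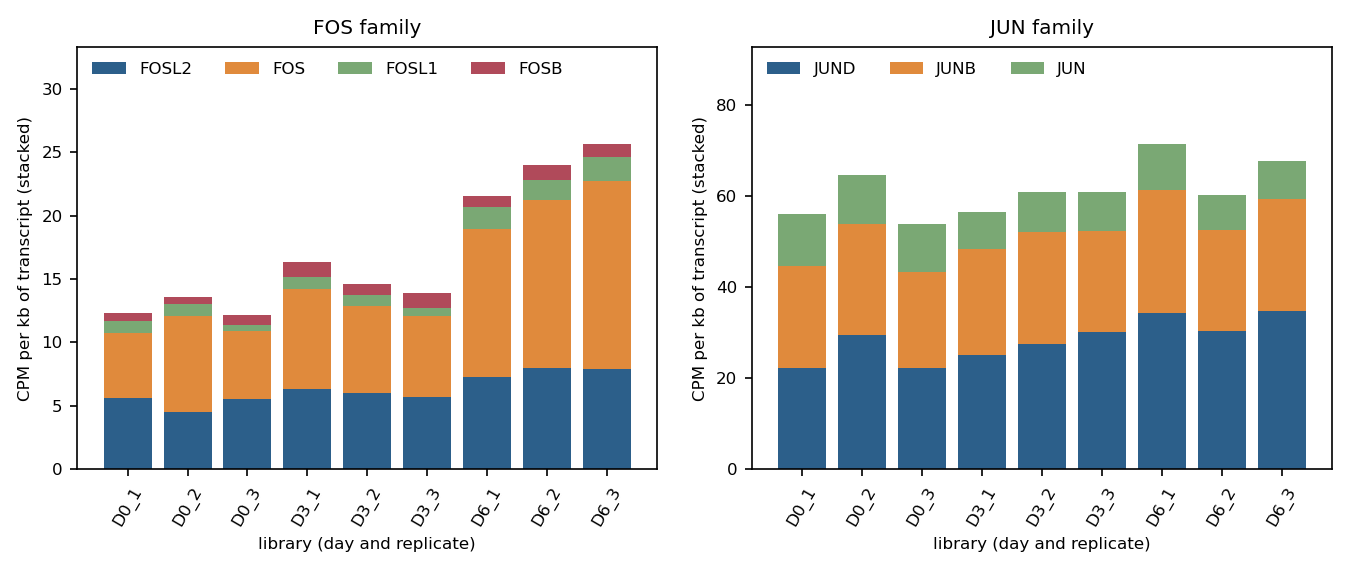
Stacked level of the FOS family (left) and JUN family (right) in CPM per kilobase of the longest coding transcript, 1 bar per library. The FOS family bars are tallest on day 6, with FOS as the largest block there, and the JUN family bars overlap between days while the JUN block is smaller on day 3 and day 6 than on day 0.

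IER3, an immediate early gene whose product affects cell survival and ERK signalling, showed the largest rise of the 10 from day 0 to day 6. It had 9.83, 15.7 and 12.8 CPM on day 0, 18.2, 16.8 and 17.7 on day 3 and 30.5, 37.4 and 39.1 on day 6. The 3 days did not overlap, and the spread was widest relative to the mean on day 0, where D0_2 was highest. IER3 was 1.48 higher on the log2 scale on day 6 than on day 0 (SE 0.15, edgeR adjusted p = 7.1e-06) and 1.02 higher than on day 3 (SE 0.15, edgeR adjusted p = 0.000455). Its rise by day 3 was smaller (0.46, SE 0.15, edgeR adjusted p = 0.0298). That rise lost its call in 7 of 19 alternatives (adjusted p 0.00108 to 0.0994): a fit of day 0 and day 3 alone, an adjusted p under 0.01, and removal of D0_1, D0_3, D3_1, D3_2 or D3_3.

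ATF3, a stress-induced bZIP factor that can pair with JUN proteins, rose by day 3 and held its level. It had 6.3, 8.34 and 5.78 CPM on day 0, 12, 11.1 and 11.4 on day 3 and 12.7, 11.7 and 14.6 on day 6. Every later library exceeded every day 0 library, and day 3 and day 6 overlapped. The rise was 0.75 on the log2 scale by day 3 (SE 0.14, edgeR adjusted p = 0.00127) and 0.93 by day 6 (SE 0.14, edgeR adjusted p = 0.000134), and day 6 against day 3 gave 0.18 (SE 0.13, edgeR adjusted p = 0.429).

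EGR1, a zinc finger factor induced by serum through serum response factor, followed FOSB in time at a low level. It had 2.94, 3.45 and 2.77 CPM on day 0, 4.88, 4.58 and 4.04 on day 3 and 4.74, 3.66 and 4.35 on day 6. All later libraries lay above day 0, with D6_2 closest to it. EGR1 rose by 0.56 on the log2 scale by day 3 (SE 0.16, edgeR adjusted p = 0.0135) and was 0.48 above day 0 on day 6 (SE 0.16, edgeR adjusted p = 0.0215). The first call was lost without D3_1 (adjusted p = 0.0591, lowest over the alternatives 0.00525). The second was lost without D0_1, D0_3, D6_1 or D6_3 (up to 0.101, lowest 0.00547). Between day 3 and day 6 the difference was -0.08 (SE 0.15, edgeR adjusted p = 0.785).

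Counted together, 4 of the 10 genes rose (FOSB, EGR1, IER3, ATF3) and 1 fell (JUN) on day 3 against day 0, where 22.5% of the 15345 tested genes were higher and 18.1% lower. Their median log2 fold change was 0.22, against 0.01 over all genes. Without D3_1 the count was 2 higher and 0 lower, and without D0_2 it was 6 higher. On day 6 against day 0, 8 rose and 1 fell, with JUNB the remaining gene, where 28.9% of tested genes were higher and 25.7% lower. The median was 0.62, against 0.01 over all genes. On day 6 against day 3, 4 rose (FOS, FOSL1, FOSL2, IER3), where 11.5% of tested genes were higher and 4.76% lower. None of the 10 was called lower there by edgeR, DESeq2 or limma-voom, nor at an unadjusted p under 0.05 in edgeR, and the median was 0.22, against 0 over all genes. Without D3_3 or without D6_3 the 4 became 2. This background rested on D0_2: without it the genes called in either direction on day 6 against day 3 went from 2497 to 4681, and 55.4% of them were higher in place of 70.7%. Libraries did not overlap between days for 6, 9 and 5 of the 10 genes in these comparisons in turn, against 53.8%, 58.7% and 43.5% of tested genes. The comparisons share libraries and are not independent of each other. Since the 10 genes were chosen with earlier results of these data known, their counts and medians are a description.

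**Figure D3:**
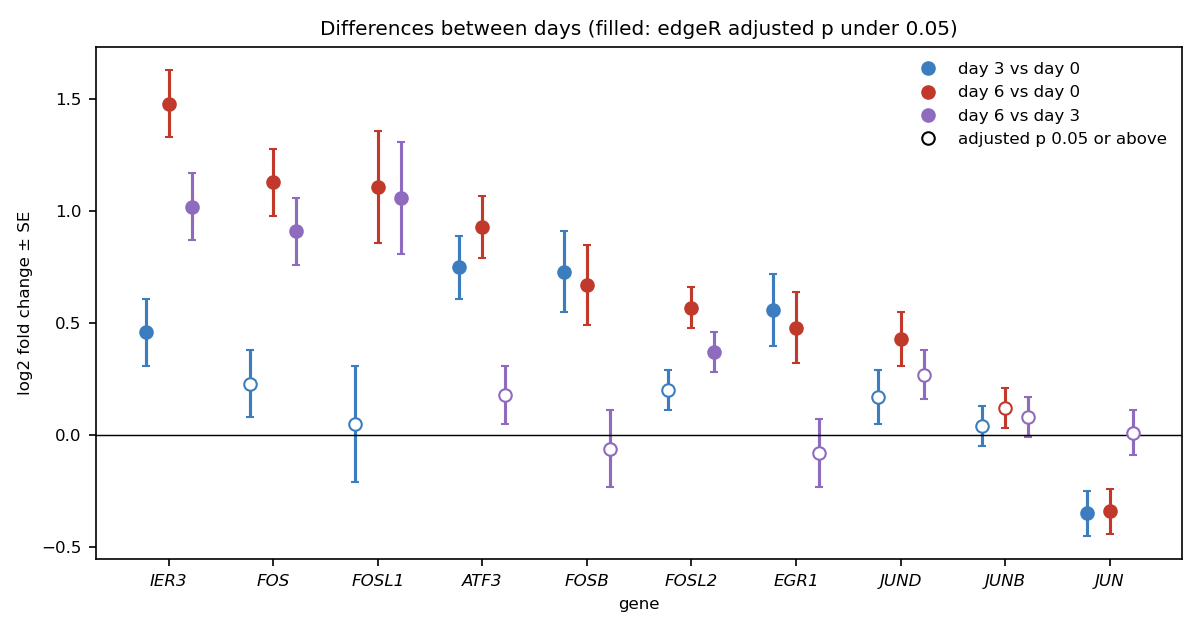
Log2 fold change ± SE (vertical axis) of each gene in the 3 comparisons of days, filled where the edgeR adjusted p was under 0.05. IER3, FOS and FOSL1 reach 1.11 to 1.48 on day 6 against day 0, JUN lies at -0.35 and -0.34 against day 0, and the 3 JUNB points are open.

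Per kilobase of transcript, JUND and JUNB were the most abundant of the 10 on day 0 (24.6 ± 4.14 and 22.7 ± 1.69 CPM per kilobase), with overlapping libraries. JUN (10.9 ± 0.382), IER3 (9.48 ± 2.19), FOS (6.03 ± 1.32) and FOSL2 (5.21 ± 0.593) followed, each overlapping the next. ATF3 (3.35 ± 0.664) stood alone, and EGR1 (0.973 ± 0.111), FOSL1 (0.787 ± 0.267) and FOSB (0.652 ± 0.0859) came last and overlapped in that order. By day 6 IER3 (26.4 ± 3.39) stood beside JUNB (24.6 ± 2.4), with JUND still above both (33.2 ± 2.42). FOS (13.2 ± 1.59) was then above JUN (8.6 ± 1.23) without overlap, whereas JUN had been the higher of the pair on day 0 and day 3. The day 6 order went on with FOSL2 (7.74 ± 0.383), which overlapped JUN, then ATF3 (6.39 ± 0.709), FOSL1 (1.73 ± 0.17), EGR1 (1.35 ± 0.174) and FOSB (1.04 ± 0.166), of which the last pair overlapped.

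Spread within a day is given as a description beside that of the median gene. Of the 7 of these 10 genes whose mean reached 5 CPM, 5, 6 and 6 had a coefficient of variation above the median of 11041 such genes on day 0, day 3 and day 6. That median was 10.5%, 3.97% and 6.71%. Genes were not matched for level, on which counting error depends, and a spread particular to these genes was not tested.

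Across the 9 libraries, the genes whose log2 CPM ran closest to each of these 7 are given as a description by Pearson's r, among 11034 genes. All points share the day effect and the depth of their library. BHLHE40, a circadian and hypoxia-linked repressor gene, and CRABP2, a retinoic acid binding protein gene, ran closest to IER3 (r = 0.997 and 0.996). BHLHE40 had 30 ± 7.48 CPM on day 0, 44.5 ± 2.57 on day 3 and 88.8 ± 10.2 on day 6, and CRABP2 had 10.2 ± 3.74, 19.3 ± 1.47 and 61.7 ± 7.74 CPM. The scaffold gene MAGI2 (0.986) and NDUFA4L2 (0.984), a mitochondrial gene known from hypoxia, ran closest to FOS, and the kinase genes TNIK (0.992) and CAMK2B (0.987) to FOSL2. For ATF3 they were the triglyceride lipase gene PNPLA2 (0.993) and TST (0.992), for JUND the ribosomal protein gene RPSA (0.987), for JUN UTP14A (0.961) and C1orf112 (0.945), and for JUNB the tubulin gene TUBA1B (0.932) and CNPPD1 (0.907).

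Genes listed as ERK feedback and output genes were mostly higher. Many of them, though not all, are known to be induced by the kinase cascade that switches on FOS and EGR1. ERK activity was not measured. Of 21 tested, 12 rose and 2 fell on day 3 against day 0, 15 rose and 3 fell on day 6 against day 0, and 11 rose and 2 fell on day 6 against day 3. The shares that rose were 57.1%, 71.4% and 52.4%, against 22.5%, 28.9% and 11.5% of all tested genes. Those that fell were 9.52%, 14.3% and 9.52%, against 18.1%, 25.7% and 4.76%. The median log2 fold changes of this list were 0.40, 0.96 and 0.59. ETV4, an ETS factor gene, had 5.81 ± 0.532 CPM on day 0, 15.1 ± 0.857 on day 3 and 24.7 ± 1.86 on day 6 (log2 fold change on day 6 against day 0 2.09, SE 0.10, edgeR adjusted p = 1.94e-08). The ERK phosphatase gene DUSP4 went from 29.1 ± 2.31 to 43.7 ± 3.5 and 99 ± 7.47, PHLDA1 from 7.47 ± 0.401 to 11.2 ± 1.17 and 31.6 ± 3.21, and the cyclin D1 gene CCND1 from 29.2 ± 0.981 to 40.7 ± 0.394 and 66.8 ± 1.5. These 4 rose in all 3 comparisons. DUSP6, the cytoplasmic ERK phosphatase gene, was chosen after its values were seen: it had 3.35 ± 0.949, 4.44 ± 0.773 and 20.2 ± 0.864 CPM, and like FOS, FOSL1 and FOSL2 it passed on day 6 and not on day 3. Also named after its values were seen is DUSP10, a phosphatase gene for p38 and JNK, which fell from 17.9 ± 3.02 to 11.4 ± 0.393 and 7.41 ± 0.898. The smaller counts of falls rested on single libraries: the 2 on day 3 became 1 without D3_1, and the 2 on day 6 against day 3 became 4 without D0_2 and 1 without D3_1, D3_3 or D6_1.

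**Figure D4:**
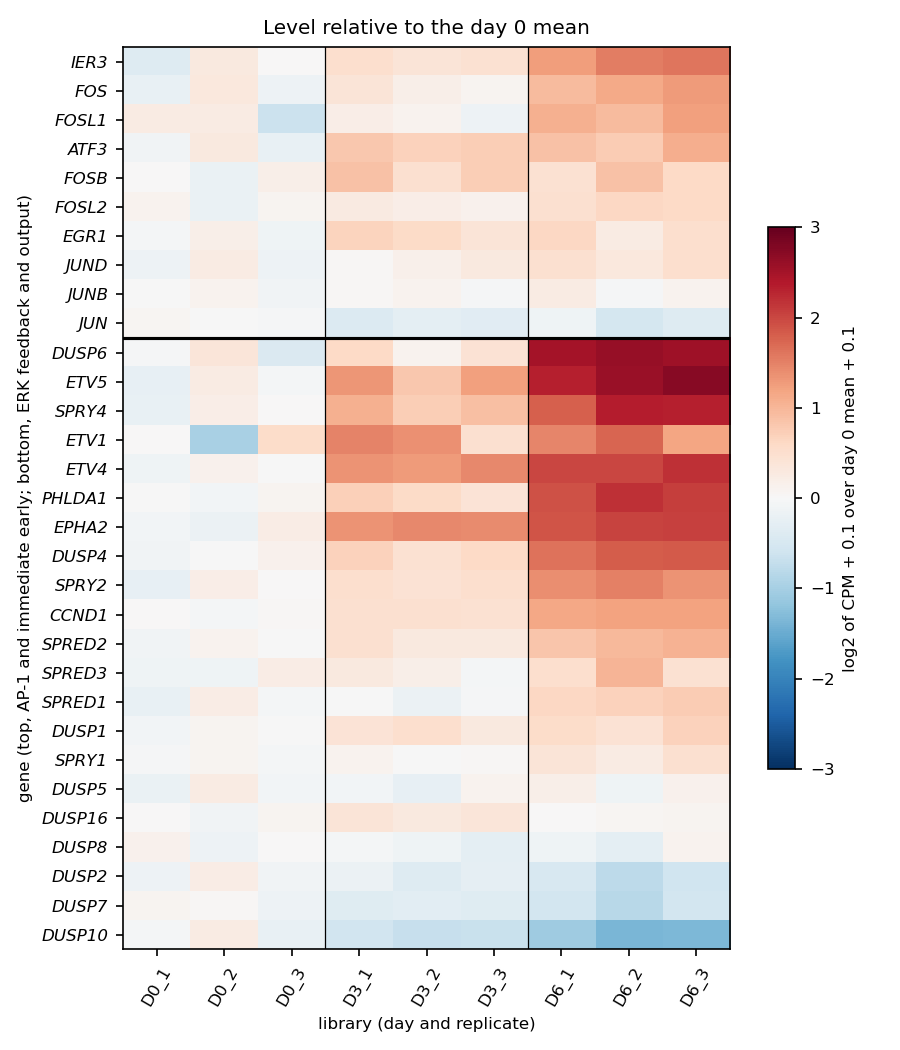
Colour map of the 10 genes (top) and the 21 ERK feedback and output genes (bottom) in the 9 libraries, as log2 of CPM + 0.1 over the day 0 mean + 0.1. Red is higher and blue lower than day 0, the last 3 columns are day 6, and JUN is the lone gene of the upper block that is blue throughout day 3 and day 6.

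Other immediate early genes rose more often than they fell. Of 31 tested (33 listed), 10 rose and 2 fell on day 3 and 17 rose and 3 fell on day 6 against day 0, with medians of 0.13 and 0.35. The shares that rose were 32.3% and 54.8%, against 22.5% and 28.9% of all tested genes. EGR3, a relative of EGR1, went from 0.562 ± 0.0927 CPM to 1.65 ± 0.146 and 2.69 ± 0.387 (log2 fold change on day 6 against day 0 2.23, SE 0.23, edgeR adjusted p = 8.69e-06). ARC, a synaptic activity gene, had 2 counts over the day 0 libraries, 62 on day 3 and 134 on day 6, a ratio of 66.3 on day 6 (95% interval 18 to 553, counting error only). IER5 went from 4.64 ± 0.987 to 6.82 ± 1.14 and 11.9 ± 0.699 and its relative IER5L from 7.53 ± 0.416 to 10.5 ± 1.29 and 16.3 ± 2.08. EGR3, IER5 and IER5L rose in all 3 comparisons, and ARC rose against day 0 in both.

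Among other AP-1 and bZIP partner genes, 4 of 18 tested (19 listed) rose and 1 fell on day 3, and 7 rose and 2 fell on day 6 against day 0, with medians of 0.14 and 0.13. The share that rose was 22.2% on day 3, near the 22.5% of all tested genes, and 38.9% on day 6, against 28.9%. Without D0_2 the 4 that rose on day 3 became 8, and the 2 that fell on day 6 became 4. The 1 that fell on day 3 became 0 without D0_1, D3_2 or D3_3, and 2 without D0_2 or D3_1. JDP2, a dimerisation partner of JUN that represses AP-1 sites, went from 12.6 ± 0.73 CPM to 28.6 ± 1.85 and 33.9 ± 1.12 (log2 fold change on day 6 against day 0 1.43, SE 0.08, edgeR adjusted p = 7.75e-08). BATF3, another JUN partner, went from 0.817 ± 0.286 to 2.21 ± 0.35 and 3.71 ± 0.598. ATF5 fell, from 50.9 ± 2.77 on day 0 and 44.9 ± 7.52 on day 3 to 30.7 ± 1.03 on day 6 (log2 fold change -0.73, SE 0.11, edgeR adjusted p = 0.000149).

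Genes of the serum response factor group were called at shares near or below those of all tested genes against day 0. That was so in the fit of all 9 libraries. Of 12 tested genes (13 listed) for serum response factor, its ternary complex and MRTF cofactors, their kinases and the EGR corepressors, 3 rose and 1 fell in each comparison with day 0, with medians of 0.06 and 0.01. The share that rose, 25%, compares with 22.5% and 28.9% of all tested genes on day 3 and day 6, and the share that fell, 8.33%, with 18.1% and 25.7%. Without D0_2 the falls were 2 on day 3 and 4 on day 6. ELK3, a ternary complex factor gene, went from 15.2 ± 1.55 CPM to 21.7 ± 1.6 and 40 ± 1.84 (log2 fold change on day 6 against day 0 1.39, SE 0.09, edgeR adjusted p = 2.52e-07), and the kinase genes RPS6KA1 (47.6 ± 1.39, 66.3 ± 3.91 and 63.7 ± 7.68) and MAPKAPK2 (43.9 ± 2.52, 49.2 ± 1.85 and 54.5 ± 3.75) were the others higher on day 6. NAB1, which encodes a corepressor of EGR proteins, fell from 111 ± 6.94 to 91.1 ± 2.01 and 67.4 ± 4.39.

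Of 23 MAP kinase genes, 4 rose and 6 fell on day 3, and 5 rose and 10 fell on day 6 against day 0, with medians of -0.06 and -0.12. The shares that rose were 17.4% and 21.7%, against 22.5% and 28.9% of all tested genes. Those that fell were 26.1% and 43.5%, against 18.1% and 25.7%. The 6 that fell on day 3 became 3 without any single day 3 library, and the 5 that rose on day 6 became 3 without D0_3 or without D6_3. MAPK11, a p38 kinase gene, went from 3.17 ± 0.362 CPM to 10.4 ± 0.602 and 15.4 ± 1.92, and the ERK1 gene MAPK3 from 47.6 ± 2.76 to 69.2 ± 1.62 and 69.7 ± 5.55. The JNK3 gene MAPK10 was at 23.6 ± 2.91, 21.3 ± 1.51 and 13.5 ± 1.19 and fell on day 6, and the main p38 gene MAPK14 fell from 76.1 ± 1.75 to 62.8 ± 1.68 and 58.1 ± 0.194. Transcript levels of kinases do not measure their activity.

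Of 38 textbook AP-1 target genes listed, 22 were tested, and the others had too few counts, a filter that a gene low on day 0 passed only by rising later. Of the 22, 9 rose and 3 fell on day 3 (40.9% and 13.6%) and 14 rose and 1 fell on day 6 against day 0 (63.6% and 4.55%). Of all tested genes, 22.5% rose and 18.1% fell on day 3, and 28.9% rose and 25.7% fell on day 6. LIF, a cytokine gene, went from 0.697 ± 0.192 CPM to 4.41 ± 0.678 and 12 ± 0.568 (log2 fold change on day 6 against day 0 4.11, SE 0.19, edgeR adjusted p = 1.14e-08). TIMP1, an inhibitor of metalloproteinases, went from 1.08 ± 0.117 to 2.8 ± 0.129 and 7.67 ± 1.22, and TGFB1 from 39.5 ± 2.77 to 77.4 ± 6.77 and 97.2 ± 11.8. The membrane protein gene EMP1 was at 1.32 ± 0.291 and 0.968 ± 0.224 on day 0 and day 3 and rose to 7.27 ± 0.369 on day 6. When genes under a mean of 5 CPM were left out, 9 of the 22 remained, of which 5 rose on day 3 and 5 on day 6.

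NF-kappaB feedback genes and heat shock genes, included as neighbouring stress programmes, were mostly called in opposite directions on day 6 against day 0. Of 10 tested NF-kappaB genes (14 listed), 4 rose and 1 fell on day 3 (40% and 10%). On day 6 against day 0, 7 rose and 1 fell (70% and 10%), and the medians were 0.11 and 0.81. Of all tested genes, 22.5% rose and 18.1% fell on day 3, and 28.9% rose and 25.7% fell on day 6. When genes under a mean of 5 CPM were left out, the 7 became 4. NFKB2 went from 7.44 ± 0.295 CPM to 14.1 ± 0.601 and 16.7 ± 0.988, ICAM1 from 0.997 ± 0.109 to 3.56 ± 0.433 and 4 ± 0.438, and RELB from 4.36 ± 0.224 to 6.95 ± 0.914 and 10.1 ± 0.688, while NFKB1 fell from 61.6 ± 4.71 to 46.7 ± 1.88 and 42.8 ± 0.697. Of 15 heat shock genes, 10 fell on day 3 (66.7%) and 11 on day 6 against day 0 (73.3%), with medians of -0.53 and -0.63. HSPA6, named after its values were seen and similar in sequence to its relatives, was the single one called higher on day 3, and not in most of the other fits. Falls on day 6 against day 0 on the log2 scale were -1.11 for both HSPD1 and HSPH1 (SE 0.09 and 0.11, edgeR adjusted p = 1.26e-06 and 4.33e-06) and -0.91 for both DNAJA1 and HSP90AA1 (SE 0.10 each, edgeR adjusted p = 1.22e-05 and 1.5e-05). Genes of this list have processed pseudogenes or near copies and their counts are uncertain.

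**Figure D5:**
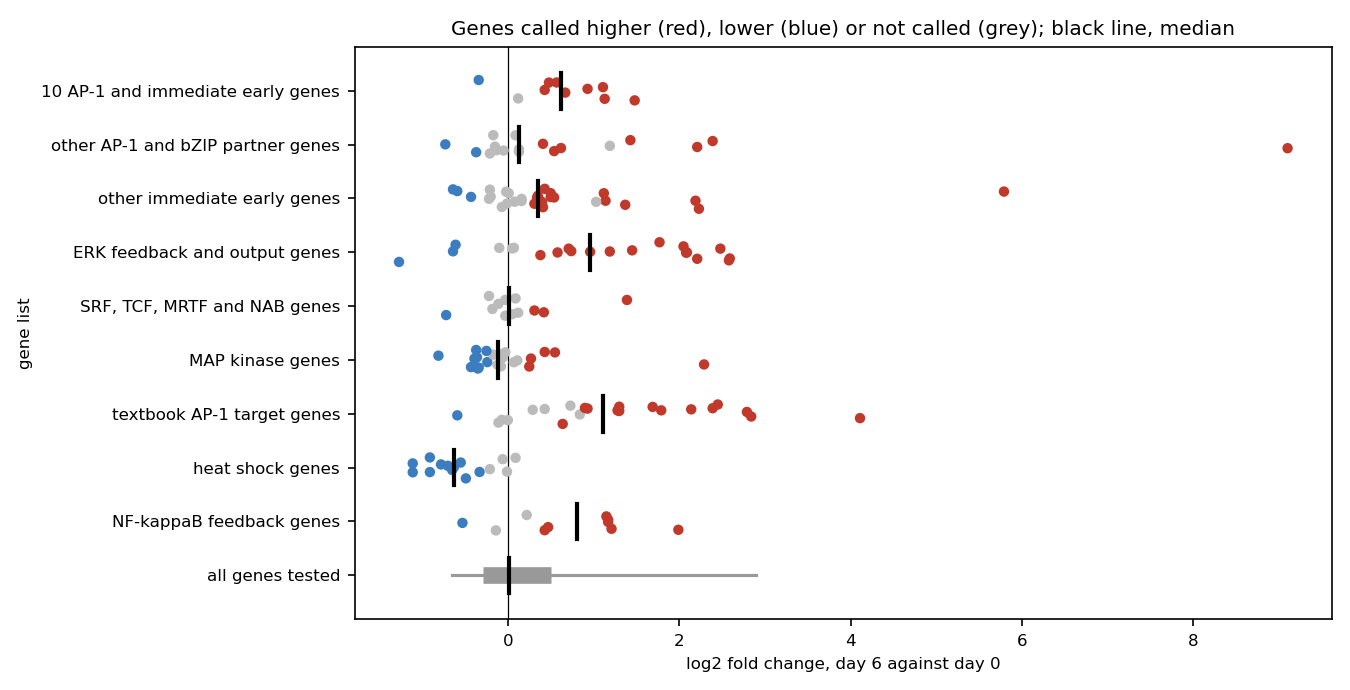
Log2 fold change on day 6 against day 0 (horizontal axis) of every tested gene in the 10 gene set and in 8 related lists, red where called higher, blue where called lower and grey otherwise, with the median as a black line and, for all 15345 genes tested, the interquartile range as a box and the 5th to 95th percentile as a line. The median of the 10 genes lies at 0.62, that of the ERK feedback and output genes at 0.96 and that of the heat shock genes at -0.63, against 0.01 for all genes.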

How the data were processed

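The 9 TYUC-1 libraries were poly-A RNA sequencing libraries, with TRIzol extraction and TruSeq chemistry per the labels' protocols. The authors deposited 1 table of estimated counts (whole numbers, not scaled) for 35762 gene symbols. Tools listed in the submitters' processing notes are kallisto 0.44.0, bcl2fastq 2.19 and DESeq2, with builds GRCh38, GRCm38 and hg38. How transcripts were summed to genes is not given in the sources used here. Estimated counts were taken as whole numbers, scaled with TMM and put through edgeR 4.0.16's quasi-likelihood F-test (R 4.3.3) after filterByExpr (minimum count 10), in 1 fit of all 9 libraries, with Benjamini-Hochberg adjustment over 15345 genes and a threshold of 0.05. The procedure was tested on simulated data. The 10 genes and all gene lists were chosen with earlier results of these data known. Named beside them are up to 4 genes per list with the lowest p for day 6 against day 0 among those past the threshold, and for each of the 10 whose mean reached 5 CPM the 2 genes with the highest correlation of log2 CPM (prior count 2). Some genes that this rule names are not reported here. Cell type markers are also named. Genes outside this rule are marked in the text as chosen with their values in view. Transcript lengths and positions are from GENCODE 29, in which 33545 symbols matched. Intervals for pooled counts are exact 95% intervals and, like the floor of 3 counts, cover counting error only.

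Alternatives were median-ratio scaling, library size only, scaling without mitochondrially encoded and the 20 most abundant genes, no low-count filter, only genes at a mean of 5 CPM or more, limma-voom (limma 3.58.1), DESeq2 1.42.0, a fit restricted to the 2 days in question, a replicate block, an adjusted p under 0.01, and each library left out in turn.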

Additional observations from a re-analysis of the deposited data

How the results depend on the processing

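Of 561 values for single genes of the 10 under the alternatives, 521 kept their direction and their side of the threshold, 26 lost a call, 5 gained one and 9 changed sign. On day 6 against day 0, FOS, FOSB, FOSL1, FOSL2, JUND, IER3 and ATF3 kept their call in every alternative run. For day 3 against day 0 the 4 genes higher became 2 among genes at 5 CPM or more (7 of the 10 tested) and 2 at an adjusted p under 0.01, and ranged from 2 to 6 with a library left out. The 1 gene lower became 0 at an adjusted p under 0.01 and ranged from 0 to 1. For day 6 against day 0 the 8 higher became 5 among genes at 5 CPM or more and ranged from 7 to 8, and the 1 lower became 0 with library size only and 0 at an adjusted p under 0.01. For day 6 against day 3 the 4 higher became 2 at an adjusted p under 0.01 and ranged from 2 to 5. Calls over all genes went from 6225 to 3860 for day 3 against day 0 at an adjusted p under 0.01. For day 6 against day 3 they went from 2497 to 1248 among genes at 5 CPM or more, 4331 with only those 2 days and 1444 at an adjusted p under 0.01, and ranged from 1606 (without D3_2) to 4681 (without D0_2). The cause was not tested, beyond fewer genes tested at 5 CPM and the stricter threshold.

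Signs changed with a library left out for values that had no call, here with the extremes over left-out libraries: on day 3 against day 0 FOSL1 (-0.19 without D0_3, -0.04 without D3_1, up to 0.2 without D0_1) and JUNB (-0.01 without D0_3, -0.002 without D3_2, up to 0.09 without D0_2), and on day 6 against day 3 FOSB (0.03 without D3_1 and 0.03 without D6_1, down to -0.19 without D6_2), JUN (-0.02 without D3_1, -0.11 without D6_1, up to 0.09 without D6_2) and EGR1 (0.01 without D6_2, down to -0.17 without D6_1). Scaling by library size only put 69.2%, 66.6% and 78.1% of called genes on the higher side in the 3 comparisons, against 55.3%, 53% and 70.7%, and for day 6 against day 3 that share was 57.9% with only those 2 days and 55.4% without D0_2.

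The replicate numbers are shared by the days, but what they stand for is not stated, and the main fit did not use them. Whether same-numbered libraries were paired cannot be settled from the data. Levels were taken as deviations from the mean of their day. Over 11041 genes, the correlations of these deviations between same-numbered libraries of different days ran from -0.15 to 0.21. Between day 0 and day 6 the deviations of each day 6 library correlated best with those of its own number, which is a hint from the data only. With the replicate number as a block the counts were 4 higher and 1 lower on day 3, 8 higher and 1 lower on day 6, both against day 0, and 4 higher and 0 lower on day 6 against day 3, and no call for the 10 genes changed. Counts for the related gene lists under the alternatives were chosen after seeing the data. Beside the changes given in the report, library size only made 5 of the SRF list higher and 3 of the MAP kinase list lower on day 3 against day 0, the genes higher on day 6 against day 0 numbered 3 in the MAP kinase list with no filter on low counts and with only those 2 days, and 4 in the bZIP partner list among genes at 5 CPM or more. Depth limits FOSL1, FOSB and EGR1 most, with 17 to 141 counts a library.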
